A study of Arabidopsis thaliana with 12 samples.

Results

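The comparison described here is the genotype by stage interaction of *dme-2*: whether the difference between *dme-2* and wild type (WT) was the same in callus and in regenerated shoots. It used all 12 mRNA libraries of the series, taken from *Arabidopsis thaliana* of the Landsberg *erecta* (L*er*) ecotype. The 4 groups held 3 biological replicates each. They were WT DAC7 calli, *dme-2* DAC7 calli, WT DAS14 shoots and *dme-2* DAS14 shoots. True leaves from seedlings aged 2 weeks, an age shared by all 12 samples, were kept in the dark on callus-inducing medium with 2,4-D and kinetin for 7 days to give DAC7 callus, and callus was then kept for 14 days under long days on shoot-inducing medium with IAA and 2-iP to give DAS14 de novo shoots. The stages therefore differed in tissue, hormones, age and light together, and these cannot be told apart. The genotype of the mutant was labelled L*er* *dme-2*/-, and a single allele was studied. For each locus *dme-2* minus WT was taken on log2(TPM + 1) at each stage, where TPM is the share of a library's transcripts scaled to a fixed total, and the interaction was the difference in DAS14 shoots minus the difference in DAC7 calli. A positive interaction means that *dme-2* stood higher against WT in shoots than in calli. Of 27147 loci in the table, the 18813 with a mean of at least 1 TPM over the 12 libraries were tested.

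*DME* (*DEMETER*) encodes a DNA glycosylase that excises 5-methylcytosine and so removes DNA methylation. It is best known for its action in the central cell of the female gametophyte, and it is also transcribed in vegetative tissue. In tissue culture, auxin-rich medium induces a callus with features of a lateral root primordium, and cytokinin-rich medium then induces green shoots from it. Several of the pathways described below are inducible. Jasmonate, a lipid-derived wound hormone, removes JAZ repressors and also induces the genes that encode them. Iron shortage induces the Ib bHLH factors, salicylate induces *PR1*, and dehydration and abscisic acid (ABA) induce the *COR* and *RD* genes.

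The libraries held between 12981250 and 20128757 counts. *DME* was at 13.2, 11.2 and 10.1 TPM in WT calli against 3.21, 3.14 and 3.54 in *dme-2* calli. Shoot levels were 19.4, 18.9 and 18.6 TPM in WT against 7.89, 7.49 and 7.89 TPM in *dme-2*. *DME* was thus lower in every *dme-2* library than in every WT library of its stage, and its interaction was 0.34 (SE 0.15, n = 3 per group) and not called (limma adjusted p = 0.189). The deposited count columns labelled *dme-2* callus went against this, with 2126, 2279 and 2542 *DME* counts against 1001 to 1317 in WT calli. Across 14082 loci, the counts and the TPM of these 3 libraries differed by 0.839 to 1.05 log2 units at the median, against 0.0382 to 0.0778 in the other 9 libraries. The results below rest on the TPM columns, and the callus side of each of them was not checked by counts. The summed TPM of 43 photosystem and light-harvesting genes was 716.2 to 979.1 in WT calli and 470.9 to 826.5 in *dme-2* calli. It rose to between 107100 and 108300 in WT shoots and between 92140 and 95480 in *dme-2* shoots, so the shoot libraries carried the labelled green tissue. A lower share of TPM in one gene class raises the others, and in bulk samples fewer cells of a type and less RNA per cell cannot be told apart.

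The effect of *dme-2* differed between the stages at 2060 loci, 10.9% of those tested (limma adjusted p under 0.05). At 1269 of them (6.75%) *dme-2* stood higher in shoots than in calli relative to WT, and at 791 (4.2%) it stood lower. The 791 became 1700 without replicate 2 of the *dme-2* calli and 426 to 493 without any 1 shoot library. By the cut-off of the study, an unadjusted p under 0.05 and a log2 difference past 1, 1347 loci (7.16%) passed, 809 of them higher (4.3%) and 538 lower (2.86%). The median interaction over all loci was -0.06. Fitted by stage, 7531 loci (40.0%) differed between *dme-2* and WT in shoots, 3674 of them higher (19.5%) and 3857 lower (20.5%) in *dme-2*. In calli 6 loci (0.0319%) passed the same threshold, and 1504 (7.99%) had an unadjusted p under 0.05. The calli were more variable: the median SD of log2(TPM + 1) among replicates was 0.207 in WT calli and 0.23 in *dme-2* calli, against 0.090 and 0.11 in the respective shoots. A callus effect that was not called is therefore not shown to be absent. Apart from *AT1G33811*, *AT5G05320* and *SDH3-1*, no called locus passed the test within calli, so callus levels and callus effects below are values and the test given with them is that of the interaction. Across loci, the callus and shoot effects had a Pearson correlation of -0.04 over 18813 loci that share libraries and are not independent, given as a description. Among the called loci the shoot effect was the larger in 1624 (78.8%), against 60.8% of all loci. Without replicate 2 of the *dme-2* calli the number called was 3480, and 51.1% of these were higher, against 61.6% with it. In fits on the deposited counts, which include the columns that went against TPM, 48.4% to 51.5% of called loci were higher. Leaving out replicate 2 or 3 of WT shoots gave 1281 or 1309 loci, and leaving out replicate 2 or 3 of *dme-2* shoots gave 1356 or 1345.

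**Figure D1:**
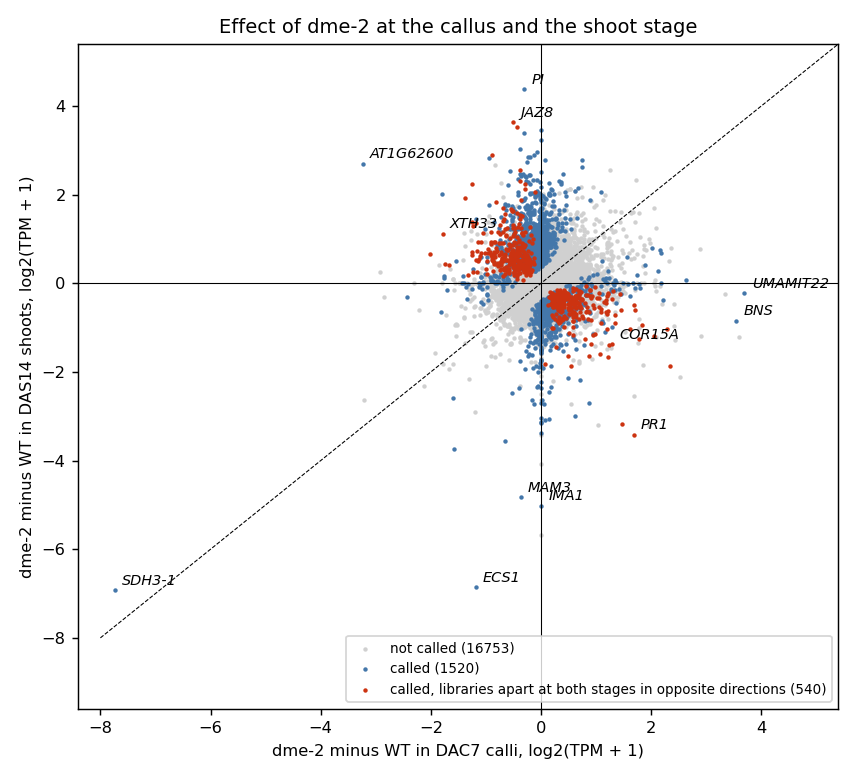
Effect of *dme-2* in DAC7 calli (x axis) and in DAS14 shoots (y axis) for the 18813 loci, both as differences in log2(TPM + 1), with 1 point per locus; the dashed line marks equal effects. The 2060 called loci lie away from that line, and 540 of them, in red, had *dme-2* libraries that did not overlap WT libraries at both stages, in opposite directions.

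The called loci were sorted by the stage at which the genotypes differed. At 1857 loci the difference was called in shoots and not in calli, 1182 of them with a positive and 675 with a negative interaction. No locus was called in calli alone, and none was called at both stages in opposite directions. Without replicate 3 of *dme-2* calli these counts were 2 and 1, without replicate 1 of *dme-2* calli 1 and 1, and without replicate 3 of WT shoots 1 and 0. Only *AT1G33811*, *AT5G05320* and *SDH3-1* were called at both stages, in the same direction. The remaining 200 were called at neither stage. Without replicate 2 of the *dme-2* calli, 2868 loci were called in shoots alone and 611 at neither stage. The number in shoots alone was 1172 or 1186 without replicate 2 or 3 of WT shoots and 1232 without replicate 3 of *dme-2* shoots, and the number at neither stage was 106 to 120 without any 1 shoot library. Without replicate 1 or 2 of WT calli or of *dme-2* calli, 1 locus was called at both stages in the same direction. These classes moved with the variance used: with stage effects from all 12 libraries together, which called 2.22% of loci in calli and 15.9% in shoots, 178 loci were called in calli alone and 85 at both stages in opposite directions. By size, with limits chosen after the values were seen, 456 called loci had a shoot effect of at least 1 and a callus effect under 0.5, and *dme-2* shoots were higher at 343 of these. Another 75 had a callus effect of at least 1 and a shoot effect under 0.5. Among all loci tested, called or not, 655 were of the first kind and 227 of the second. A smaller share of the second kind was thus called, in the more variable calli. At 240 called loci the effects were opposite in sign and at least 0.5 at both stages, with *dme-2* higher in shoots at 145 and higher in calli at 95. Of all loci tested, 382 were of this kind. The 240 became 434 without replicate 2 of the *dme-2* calli. The libraries of the genotypes did not overlap in calli at 12.5% of all loci and in shoots at 52.6%. Libraries that did not overlap at both stages, in opposite directions, were seen at 687 of all loci (3.65%) and at 540 (26.2%) of the called ones. Of the 540, 248 were higher in *dme-2* calli and lower in *dme-2* shoots, and 292 were the reverse. The choice by interaction favours such loci, so the 26.2% is given as a description.

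Most jasmonate genes differed between the genotypes in shoots. Of 22 tested members of the jasmonate list, 10 had a positive and 3 a negative called interaction, with a median of 1.09. In shoots 17 members were higher and 3 lower in *dme-2*. Over all loci 6.75% had a positive and 4.2% a negative called interaction, and in shoots 19.5% were higher and 20.5% lower. These are the shares to set beside the count of each list below, and whether a list exceeds them was not tested. The JAZ proteins repress jasmonate transcription factors and are themselves induced by the hormone. All 8 *JAZ* genes tested were higher in *dme-2* shoots, with shoot effects of 0.88 to 3.64, while their callus effects lay between -0.51 and 0.52. The interaction was called at 7 of the 8, *JAZ9* being the exception at 0.36 (limma adjusted p = 0.4), and this sub-group was formed after its values were seen. *JAZ8* was at 99.6, 67.6 and 70.0 TPM in WT calli against 62.8, 42.7 and 60.02 in *dme-2* calli. Its shoot levels were 9.96, 4.83 and 5.6 TPM in WT against 68.5, 102.8 and 112 TPM in *dme-2*. The gene was thus slightly lower in every *dme-2* callus and far higher in every *dme-2* shoot library, with an interaction of 4.15 (SE 0.38, limma adjusted p = 0.000102). *JAZ7* was at 26.8 to 44.0 TPM in WT calli and 26.49 to 27.8 TPM in *dme-2* calli, and at 8.39 to 12.2 TPM in WT shoots and 102.8 to 123 TPM in *dme-2* shoots. WT shoots were the lowest of the 4 groups for both genes, and *dme-2* shoots lay within or above the range of calli for *JAZ8* and above it for *JAZ7*. *LOX3* and *LOX4* encode lipoxygenases that act at the start of jasmonate synthesis, and both had positive interactions, of 3.1 (SE 0.50) and 2.77 (SE 0.23). *LOX4* was at 32.1, 35.1 and 34.4 TPM in WT shoots against 178, 177 and 177 in *dme-2* shoots, and in calli its groups overlapped. *CYP94B3*, which inactivates the active hormone jasmonoyl-isoleucine, had an interaction of 2.67 (SE 0.27). The synthesis genes *AOC1* and *AOC2*, which encode allene oxide cyclases, had larger callus effects, of 1.77 and 1.88 with calli that did not overlap, and were higher in *dme-2* shoots as well, by 1.59 and 0.77. Their interactions were -0.19 and -1.11 and were not called (limma adjusted p = 0.886 and 0.191). *VSP2*, a vegetative storage protein gene induced by jasmonate, was at 246 to 259 TPM in WT shoots and 112 to 116 TPM in *dme-2* shoots, with an interaction of -0.97 (limma adjusted p = 0.00199). *LOX2*, a chloroplast lipoxygenase gene, had an interaction of -0.89, with a callus effect of 0.61 and a shoot effect of -0.28. Among 7 jasmonate synthesis enzymes tested, 2 had a positive and 1 a negative called interaction.

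**Figure D2:**
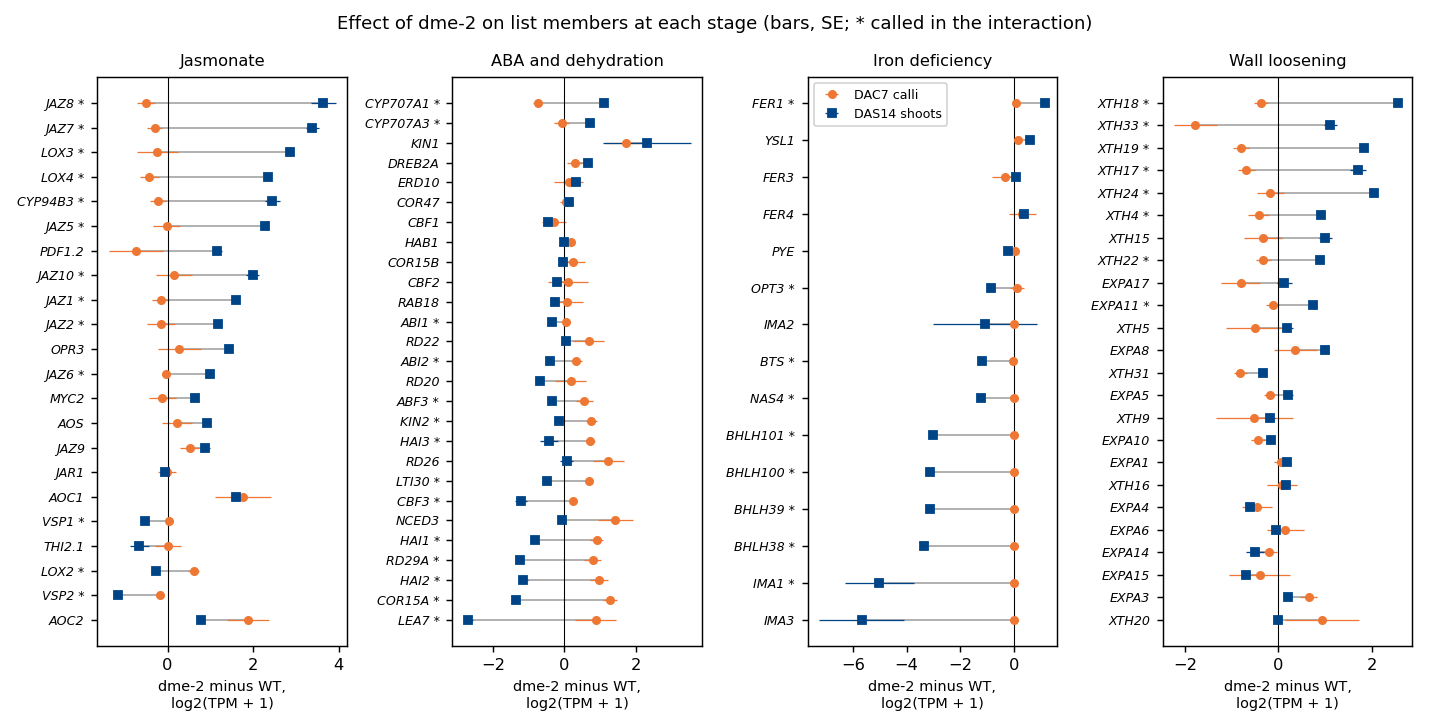
Effect of *dme-2* on each tested member of 4 gene lists, in DAC7 calli (orange circles) and DAS14 shoots (blue squares), as a difference in log2(TPM + 1) with its standard error; an asterisk marks an interaction called by limma. The *JAZ* genes and most *XTH* genes lie to the right in shoots, the Ib *BHLH* genes lie at 0 in calli and to the left in shoots, and *COR15A* and *RD29A* change sides.

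Most iron-deficiency genes were lower in *dme-2* shoots, and several were not detected in calli. Of 15 tested members of the iron list, 9 were lower and 3 higher in *dme-2* shoots, and 8 had a negative and 1 a positive called interaction, with a median of -1.17. Over all loci 20.5% were lower and 19.5% higher in *dme-2* shoots, and 4.2% had a negative and 6.75% a positive called interaction. The Ib bHLH factors (*BHLH38*, *BHLH39*, *BHLH100* and *BHLH101*) are induced when iron is short and activate iron uptake. All 4 were called, with interactions of -3.37 to -3.04, and all 4 were listed at 0 TPM in all 6 callus libraries. Their interaction is therefore the shoot difference. *BHLH38* was at 19.9, 17.76 and 17.9 TPM in WT shoots against 0.72, 0.79 and 1.17 in *dme-2* shoots. *BTS*, an E3 ligase gene that restrains the iron response and is induced with it, was transcribed at both stages. It was at 29.2 to 38.3 TPM in WT calli and 30.6 to 37.3 TPM in *dme-2* calli, and at 61.6 to 63.8 TPM in WT shoots and 25.3 to 27.9 TPM in *dme-2* shoots. *BTS* therefore fell in shoots with overlapping calli (interaction -1.17, SE 0.15, limma adjusted p = 0.00088). *NAS4*, a nicotianamine synthase gene, also fell in shoots, from 35.1 to 38.2 TPM in WT to 13.6 to 16.2 TPM in *dme-2*, and was at 0 in calli. *FER1*, which encodes the iron store ferritin and is induced by iron excess, went the other way, at 148 to 157 TPM in WT shoots and 326 to 352 TPM in *dme-2* shoots (interaction 1.07, SE 0.16). *IMA1*, a gene for a short iron-signalling peptide, was at 38.9, 102 and 162 TPM in WT shoots against 0, 0 and 18.6 in *dme-2* shoots. Its replicates varied too much for a stable call: the adjusted p of 0.0367 by limma rose to as much as 0.094 when 1 library was left out. *IRT1*, *FRO2* and *FIT*, the uptake genes of the root epidermis, averaged under 1 TPM and were not tested.

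The aliphatic branch of glucosinolate synthesis fell in *dme-2* shoots, and the indole branch had no called interaction by limma, with 3 of its genes at an unadjusted p under 0.05, all positive. Glucosinolates are sulphur-rich defence compounds of the cabbage family, made from chain-elongated methionine or from tryptophan. Of 25 tested members of the list, 11 had a negative and 0 a positive called interaction, against 4.2% and 6.75% of all loci. All 11 were among the 15 genes of chain elongation and the aliphatic core, and 0 were among the 6 genes of the indole branch, a division made after the values were seen. *MAM3*, a methylthioalkylmalate synthase of chain elongation, was at 73.4, 70.1 and 70.2 TPM in WT shoots against 1.17, 2.03 and 1.49 in *dme-2* shoots, the largest change of the list. In calli it was at 0.15 to 0.60 TPM in WT and 0 to 0.09 TPM in *dme-2*, and its interaction was -4.46 (SE 0.22, limma adjusted p = 3.2e-06). *CYP79F1*, the entry enzyme of the aliphatic core, was at 53.2 to 55.6 TPM in WT shoots and 6.82 to 9.12 TPM in *dme-2* shoots. *CYP79F1* and its neighbour *CYP79F2* are closely related copies between which reads may be split. *IPMI2*, *BAT5* and *BCAT4*, also of chain elongation, had interactions of -2.60, -2.48 and -2.05. *MYB28*, the main activator of the branch, was at 80.0 to 87.8 TPM in WT shoots and 43.1 to 49.8 TPM in *dme-2* shoots. *MYB28* lost its call without single libraries (highest limma adjusted p = 0.0598). All of the genes named above were at or under 1.07 TPM in every callus library, although *MAM3* was lower in every *dme-2* callus library than in every WT one. *MAM1*, a close relative of *MAM3*, had a shoot effect of 0.01 and an interaction of -0.05.

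Flavonoid genes showed the same pattern, with 11 of 19 tested members at a negative called interaction, 0 at a positive one, and a median of -0.87. In shoots 15 members were lower and 0 higher in *dme-2*, against 20.5% and 19.5% of all loci. A negative interaction was called at 4.2% of all loci. *LDOX* and *DFR*, late enzymes of anthocyanin synthesis, and *UF3GT* and *5MAT*, which decorate anthocyanins, were at or under 0.14 TPM in all 6 callus libraries. *LDOX* was at 35.7, 35.9 and 35.1 TPM in WT shoots against 15.2, 14.7 and 11.7 in *dme-2* shoots (interaction -1.37, SE 0.17). *UF3GT* was at 9.94 to 11.3 TPM in WT shoots and 2.16 to 2.69 TPM in *dme-2* shoots. *MYBL2*, a repressor of the pathway, fell with them, from between 27.4 and 30.8 TPM to between 8.72 and 12.9 TPM. *CHS*, the first committed enzyme, had an interaction of -0.70 that was not called (limma adjusted p = 0.49). *PAL1*, at the head of phenylpropanoid synthesis, had a callus effect of 1.31 and a shoot effect of -0.18, and its call (limma adjusted p = 0.0496) was lost when any of 11 libraries was left out. The 11 calls of the list became 6 or 7 without any 1 of the 3 WT shoot libraries or replicate 1 or 3 of *dme-2* shoots.

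Nitrate and phosphate genes, among them genes of phosphate starvation, were higher in *dme-2* shoots at 12 of 14 tested members and lower at 1. Of these, 6 had a positive and 0 a negative called interaction, with a median of 0.62. Over all loci 19.5% were higher and 20.5% lower in *dme-2* shoots, and 6.75% had a positive called interaction. *MGD3*, a galactolipid synthase induced when phosphate is short, was at 36.8, 37.7 and 36.8 TPM in WT shoots against 179.5, 174 and 181 in *dme-2* shoots. It was at 0.83 TPM or less in every callus library, and its interaction was 2.43 (SE 0.16, limma adjusted p = 1.2e-05). *PS2*, a phosphatase gene of the same response, was lower in calli and higher in shoots: it was at 177 to 205 TPM in WT calli and 107 to 162 TPM in *dme-2* calli, and at 410.2 to 434 TPM in WT shoots and 1287 to 1325 TPM in *dme-2* shoots. *SPX3* and *PHT1;4*, a phosphate sensor and a phosphate transporter, had interactions of 1.42 and 1.32.

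Low-oxygen genes leaned the same way, with 7 positive and 2 negative called interactions among 23 tested members and a median of 0.63. The shares over all loci were 6.75% and 4.2%. *RAP2.3*, an ethylene response factor that is degraded in the presence of oxygen, was at 2229.7 to 2392 TPM in WT calli and 2135 to 2668 TPM in *dme-2* calli. Its shoot levels were 464, 461 and 457 TPM in WT against 1075, 1096 and 1126 TPM in *dme-2*, which gave an interaction of 1.22 (SE 0.15, limma adjusted p = 0.000499). *PDC1*, a pyruvate decarboxylase of fermentation with closely related copies, was at 78.5 to 81.0 TPM in WT shoots and 219 to 223 TPM in *dme-2* shoots, and its calli overlapped. *ETR2*, an ethylene receptor gene, had an interaction of 0.995. *LBD41* and *PCO1*, further low-oxygen genes, had negative interactions of -0.61 and -0.78. The calls of *LBD41* and *PCO1* were lost when 1 library was left out (highest limma adjusted p = 0.0501 and 0.0589). For *RAP2.3* and *ETR2*, *dme-2* shoots lay between WT shoots and calli, and for *PDC1* they lay within the range of calli.

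Other lists held a few members of this kind. Of all loci tested, 10.9% were called, 6.75% positive and 4.2% negative, and whether these lists exceed that was not tested. *BGAL4*, a beta-galactosidase gene of the low-energy list (4 positive and 1 negative of 16, and 3 in all without replicate 1 or 3 of WT shoots or replicate 3 of *dme-2* shoots), was at 9.38 to 10.1 TPM in WT shoots and 49.5 to 53.6 TPM in *dme-2* shoots, with an interaction of 2.13. *STM*, the homeobox gene that maintains the shoot meristem, was at 8.90, 9.55 and 8.87 TPM in WT shoots against 18.5, 21.4 and 17.39 in *dme-2* shoots. It was at 0 in 5 of the 6 callus libraries, and its interaction was 0.96 (SE 0.16, limma adjusted p = 0.0036). The *STM* call was kept whichever library was left out, but was lost under another setting of the fit (highest limma adjusted p = 0.184). The shoot meristem list had 3 positive and 0 negative called interactions among 17 tested members, and the other members were *KNAT1* and *PNF*, homeobox genes whose calls were lost when single libraries were left out (highest limma adjusted p = 0.0795 and 0.0707). The count for this list was 1 without replicate 2 or 3 of WT shoots, replicate 1 or 2 of *dme-2* shoots or replicate 1 of *dme-2* calli. *ARR5* and *ARR6*, cytokinin-induced response regulators, had interactions of 1.79 and 2.11, and *ARR16*, of the same family, had -1.88. *ARR16* was at 0.76 to 2.40 TPM in WT calli and 4.70 to 5.94 TPM in *dme-2* calli, and at 4.13 to 6.46 TPM in WT shoots and 2.38 to 3.2 TPM in *dme-2* shoots. *ARR6* and *ARR16* thus had opposite orders of the genotypes at both stages. The cytokinin list as a whole had 3 positive and 1 negative called interactions among 31, or 7 without replicate 2 of *dme-2* calli. With all 12 libraries its called share was 12.9%, close to the 10.9% of all loci, so the count does not set this list apart.

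Floral identity genes did not move together. *PI* (*PISTILLATA*), a MADS-box gene of petal and stamen identity, had a positive interaction of 4.68 (SE 0.26, limma adjusted p = 6.58e-06). It was at 27.8, 20.1 and 15.4 TPM in WT calli against 15.2, 16.2 and 18.16 in *dme-2* calli, which overlap. Its shoot levels were 2.33, 2.33 and 1.57 TPM in WT against 59.8, 66.2 and 61.5 TPM in *dme-2*. Its partner *AP3*, and *AP1*, *AG* and *LFY*, averaged under 1 TPM and were not tested. *SEP1*, a MADS-box gene that acts with floral identity genes, went down instead, from between 9.19 and 13.2 TPM in WT shoots to between 0.32 and 0.72 TPM in *dme-2* shoots (interaction -3.2, SE 0.24). *SPL9*, which promotes the change to adult growth, was at 10.8 to 13.3 TPM in WT shoots and 3.47 to 6.37 TPM in *dme-2* shoots. The *SPL9* call was lost under another setting of the fit (highest limma adjusted p = 0.165). Of 9 tested members of the flowering list, 1 had a positive and 2 a negative called interaction, against 6.75% and 4.2% of all loci.

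**Figure D3:**
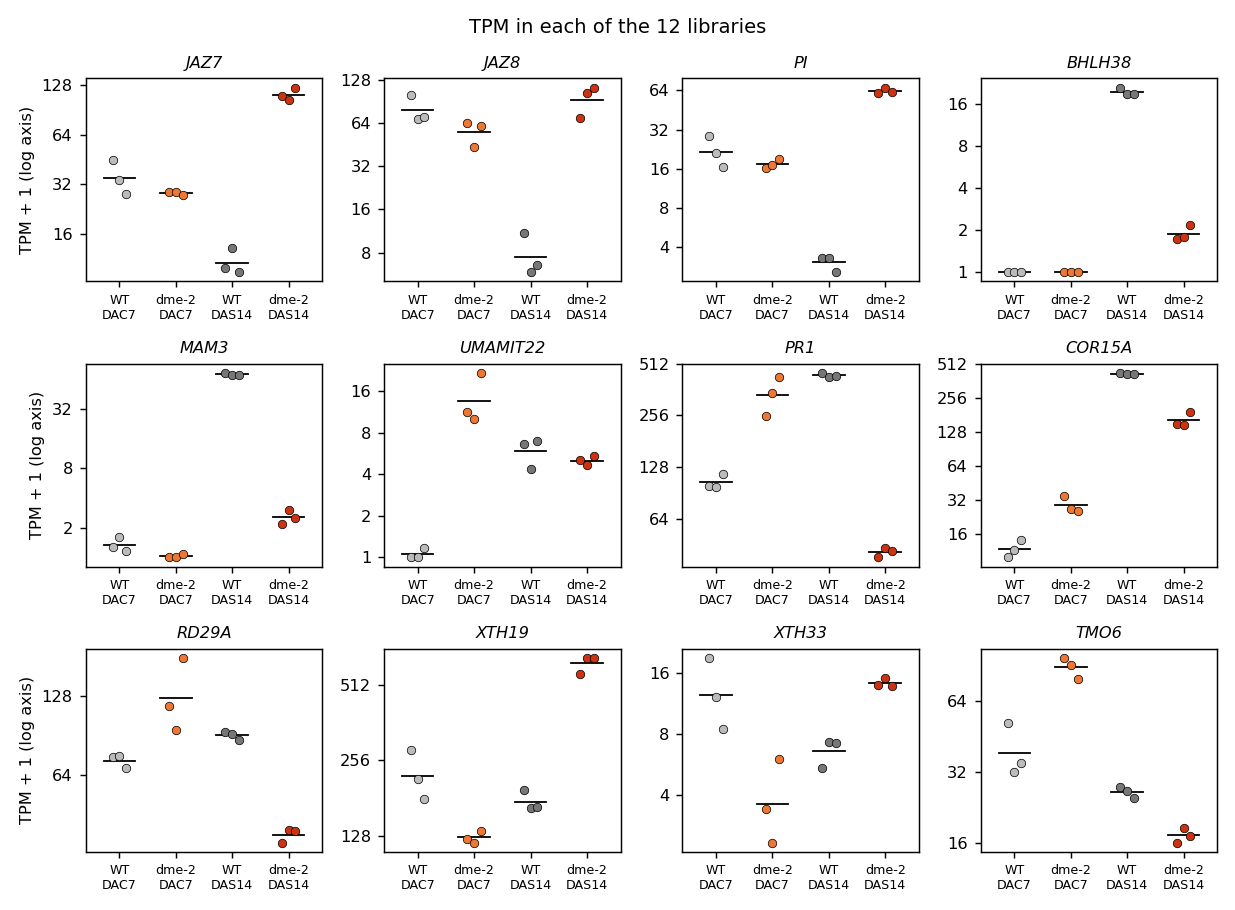
TPM + 1 on a log axis in each of the 12 libraries for 12 genes, with 1 point per library and a bar at the group mean. *JAZ7*, *JAZ8*, *PI*, *BHLH38* and *MAM3* separate the genotypes mainly in shoots, *UMAMIT22* separates them in calli, and *PR1*, *COR15A*, *RD29A*, *XTH19*, *XTH33* and *TMO6* separate them at both stages in opposite directions.

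Of the 540 loci whose libraries were apart in opposite directions, the largest interaction was that of *PR1*, the marker gene of salicylate-dependent defence. It was at 98.6, 97.0 and 115 TPM in WT calli against 254, 345 and 425 in *dme-2* calli. In shoots the order turned, with 452, 429 and 433 TPM in WT against 37.2, 42.3 and 40.7 TPM in *dme-2*. The groups did not overlap at either stage, and the interaction was -5.10 (SE 0.22, limma adjusted p = 1.34e-06, callus effect 1.68, shoot effect -3.42). The locus belongs to a tandem pair with *PRB1*, so reads could in part be shared. *NIMIN1*, which encodes a partner of the salicylate receptor NPR1, also changed sides, although at low levels of 0 to 2.98 TPM (interaction -2.11, limma adjusted p = 0.0117). Other members of the list differed. *PR2*, a glucanase gene, was higher in *dme-2* at both stages, by 2.15 in calli and 0.75 in shoots, and *PR5* by 1.24 and 1.02. *SARD1*, a regulator of salicylate synthesis, had a positive interaction of 1.38 with a callus effect of -0.01. In all, 7 of 20 tested members had a negative and 1 a positive called interaction, against 4.2% and 6.75% of all loci, with a median of -0.28. The total of 8 became 5 without replicate 1 of WT shoots or replicate 3 of *dme-2* shoots.

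Many ABA and dehydration genes had a positive effect of *dme-2* in calli and a negative one in shoots. Of 27 tested members, 18 had this order of signs, and 12 had a negative and 2 a positive called interaction. Over all loci 4.2% had a negative and 6.75% a positive called interaction. The share of all loci with this order of signs is not given here. In shoots 13 members were lower and 4 higher, and in calli 0 were called. The median effect was 0.34 in calli and -0.25 in shoots, against 0.03 and -0.02 over all loci. At 7 members the libraries did not overlap at both stages, in opposite directions, which was seen at 3.65% of all loci. *COR15A*, which encodes a chloroplast protein that protects membranes in cold and drought, was at 8.89, 10.4 and 13.2 TPM in WT calli against 33.9, 25.4 and 24.3 in *dme-2* calli. Shoot levels were 427, 413 and 418 TPM in WT against 149.6, 145 and 192 TPM in *dme-2*, with an interaction of -2.66 (SE 0.23, limma adjusted p = 7.08e-05). *RD29A*, a dehydration-induced gene, was at 66.7 to 74.2 TPM in WT calli and 94.1 to 177 TPM in *dme-2* calli, and at 85.9 to 92.3 TPM in WT shoots and 34.3 to 38.5 TPM in *dme-2* shoots. *HAI1* and *HAI2*, ABA-induced protein phosphatases that dampen ABA signalling, had interactions of -1.74 and -2.13 and changed sides in the same way. *CYP707A1*, the enzyme that breaks ABA down, was the mirror image: it was at 18.5 to 19.1 TPM in WT calli and 9.85 to 12.5 TPM in *dme-2* calli, and at 11.3 to 12.9 TPM in WT shoots and 23.9 to 29.0 TPM in *dme-2* shoots (interaction 1.86, SE 0.16, limma adjusted p = 7.67e-05). *NCED3*, the rate-limiting enzyme of ABA synthesis, had a callus effect of 1.43, a shoot effect of -0.07 and an interaction that was not called (limma adjusted p = 0.085). Without 1 library, between 8 and 17 members of this list were called, with 8 when replicate 2 or 3 of WT shoots or replicate 3 of *dme-2* shoots was left out, and 9 without replicate 1 of either group of calli or replicate 1 or 2 of *dme-2* shoots. Every leave-one-out median was between -0.82 and -0.63.

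Xyloglucan endotransglucosylase (*XTH*) genes tended to the reverse order, with a negative effect of *dme-2* in calli and a positive one in shoots at 9 of 13 tested. The sub-group was formed after its values were seen, and the share of all loci with this order of signs is not given here. These enzymes cut and rejoin the xyloglucan that tethers cellulose in growing walls. Of 24 tested wall-loosening genes, 8 had a positive and 0 a negative called interaction, against 6.75% and 4.2% of all loci. Of these 8, 7 were *XTH* genes, out of 13 tested, and the other was *EXPA11*, out of 11 expansins tested. In shoots 9 *XTH* genes were higher and 1, *XTH31*, was lower in *dme-2*, and callus effects ran from -1.78 at *XTH33* to 0.94 at *XTH20*. *XTH19* was at 279, 214 and 179 TPM in WT calli against 123, 119 and 133 in *dme-2* calli. Shoot levels were 193, 164 and 165 TPM in WT against 562, 653 and 652 TPM in *dme-2*, with an interaction of 2.64 (SE 0.21, limma adjusted p = 4.09e-05). *XTH17* and *XTH18*, closely related to *XTH19*, changed sides as well, with interactions of 2.40 and 2.94. Reads of these 3 genes may be split among them. *XTH33*, a more distant member, was at 7.48 to 18.0 TPM in WT calli and 1.34 to 5.02 TPM in *dme-2* calli, and at 4.48 to 6.35 TPM in WT shoots and 12.9 to 14.1 TPM in *dme-2* shoots (interaction 2.90, SE 0.48). Between 8 and 9 members of the list were called whichever library was left out.

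Of 6 vascular DOF transcription factor genes tested, 4 had levels in *dme-2* calli above those of every WT callus library, and 3 of these 4 were below every WT library in shoots. Over all loci, libraries did not overlap at 12.5% in calli and 52.6% in shoots, and the DOF genes were set apart from the list after their values were seen. These factors promote cell division in the young vascular cylinder. *TMO6* was at 50.6, 31.0 and 33.8 TPM in WT calli against 96.8, 90.5 and 78.8 in *dme-2* calli. It was at 23.9 to 26.6 TPM in WT shoots and 15.1 to 17.55 TPM in *dme-2* shoots, with an interaction of -1.82 (SE 0.23, limma adjusted p = 0.000617). *DOF2.1* and *PEAR1* had interactions of -1.50 and -1.66 with the same order of the genotypes within each stage. *PEAR2* had a callus effect of 1.19 and a shoot effect of 0.13, and its call was lost without single libraries (highest limma adjusted p = 0.054). The other 2, *HCA2* and *OBP2*, had callus effects of 0.85 and -0.34 and were not called. The wound-induced ERF genes of the same list differed from them: *ERF109*, induced by wounding and jasmonate, had an interaction of 2.39, and *RAP2.6L* had 0.995. The list held 4 negative and 2 positive called interactions among 14 tested members, against 4.2% and 6.75% of all loci.

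Opposite responses were also seen at single members of other lists. *TAR3*, a homologue of the auxin synthesis gene *TAA1*, was at 0 to 0.11 TPM in WT calli and 0.48 to 1.05 TPM in *dme-2* calli, and at 2.32 to 2.59 TPM in WT shoots and 0.81 to 1.15 TPM in *dme-2* shoots. *LNK1*, which activates evening genes of the circadian clock, had a callus effect of 0.56 and a shoot effect of -0.67, and *LUX*, of the evening complex, had -0.20 and 0.49. At *LTP3* and *LTP4*, lipid transfer protein genes that share 1 L*er* locus, TPM was 19.1 to 32.6 in WT calli and 53.5 to 64.5 in *dme-2* calli. In shoots the order turned, to 63.0 to 88.4 TPM in WT against 18.3 to 26.8 TPM in *dme-2* (interaction -2.88, SE 0.28). *HSP17.6C*, a small heat shock protein gene with closely related copies, was at 127 to 218 TPM in WT calli and 50.1 to 99.3 TPM in *dme-2* calli, and at 0.22 to 0.51 TPM in WT shoots and 1.71 to 2.61 TPM in *dme-2* shoots. *HSFA2*, a factor that prolongs the heat response, was higher in *dme-2* at both stages, by 0.74 in calli and 2.61 in shoots, and 5 of 24 tested heat shock genes had a positive and 0 a negative called interaction, or 8 without replicate 3 of *dme-2* calli. In shoots 15 of the 24 were higher and 0 lower in *dme-2*, and the list medians were 0.31 in calli and 0.78 in shoots. Over all loci 19.5% were higher in *dme-2* shoots, and 6.75% had a positive called interaction. The summed TPM of the heat shock list was 3103 to 4443 in WT calli and 5124 to 6943 in *dme-2* calli, against 182.2 to 191.7 and 388 to 441.4 in the respective shoots.

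Some of the largest interactions were at genes outside the lists. *AT2G37130*, a class III peroxidase gene, was at 1407, 1180.0 and 1218 TPM in WT calli against 863, 924 and 1009.7 in *dme-2* calli. Shoot levels were 14.6, 16.8 and 16.1 TPM in WT against 197, 186 and 196 TPM in *dme-2*, so both stages separated the genotypes, in opposite directions (interaction 3.97, SE 0.14, limma adjusted p = 2.33e-07). *AT5G52020*, of the AP2/ERF transcription factor family, showed the same order, at 18.8 to 30.3 TPM in WT calli, 8.84 to 13.4 TPM in *dme-2* calli, 0.36 to 1.42 TPM in WT shoots and 11.01 to 14.0 TPM in *dme-2* shoots. *GER2*, a germin-like protein gene in a group of close copies, was the reverse, at 2.57 to 3.48 TPM in WT calli, 7.85 to 12.5 TPM in *dme-2* calli, 7.78 to 10.1 TPM in WT shoots and 0 to 0.37 TPM in *dme-2* shoots. *ECS1*, which encodes a cell wall protein, fell from 643, 598 and 661 TPM in WT shoots to 2.90, 6.29 and 4.71 TPM in *dme-2* shoots, against 0 to 2.72 TPM in all calli (interaction -5.68, SE 0.57, limma adjusted p = 0.00017). The *ECS1* call was lost under another setting of the fit (highest limma adjusted p = 0.11). At *AT1G62600*, a flavin monooxygenase gene with close copies, 1 library departed from its group at each stage: *dme-2* calli were at 28.1, 0.07 and 0.07 TPM, and WT shoots at 2.48, 0 and 0.07 TPM. Its interaction of 5.94 (SE 1.49, limma adjusted p = 0.0282) was therefore not stable and reached an adjusted p of 0.075 without 1 library. *SDH3-1*, of mitochondrial succinate dehydrogenase, averaged 212.9 TPM in WT calli and 120.3 TPM in WT shoots and was listed at 0 in all *dme-2* libraries, so its interaction of 0.81 reflects the different WT levels alone.

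At a smaller number of called loci the effect was larger in calli than in shoots. Among them were the 75 with a callus effect of at least 1 and a shoot effect under 0.5, out of 227 such loci tested. *UMAMIT22*, of an amino acid transporter family, was at 0, 0 and 0.16 TPM in WT calli against 10.4, 9.16 and 20.8 in *dme-2* calli. WT shoots, at 3.38 to 5.97 TPM, overlapped *dme-2* shoots, at 3.68 to 4.40 TPM. Its interaction was -3.92 (SE 0.38, limma adjusted p = 0.000137). *PUT1*, a polyamine transporter gene, was at 0.32 to 0.66 TPM in WT calli and 3.35 to 8.83 TPM in *dme-2* calli, with shoots that were not fully apart and an interaction of -2.59. *LEA4-5*, a late embryogenesis abundant protein gene, was at 49.1 to 51.8 TPM in WT calli and 114 to 220.3 TPM in *dme-2* calli, against 2.96 to 6.84 TPM in all shoots. *SCPL34*, a serine carboxypeptidase-like gene, was the reverse, at 81.1 to 96.0 TPM in WT calli and 21.6 to 32.7 TPM in *dme-2* calli. The order turned in shoots, with 46.0 to 48.5 TPM in WT against 61.6 to 67.3 TPM in *dme-2*, and this smaller difference was the one that passed within a stage (effect 0.43, limma adjusted p = 0.00116), against an adjusted p of 0.0991 in calli. Outside the 75, *PORB*, of chlorophyll synthesis, was at 4.61 to 5.51 TPM in WT calli and 2.65 to 2.94 TPM in *dme-2* calli, while the shoots of both genotypes lay between 1085 and 1114 TPM. *IPT7*, a cytokinin synthesis gene also outside the 75, had a callus effect of -0.91 and a shoot effect of 0.06, but its call (limma adjusted p = 0.0356) was lost when any of 9 libraries was left out. *HSP22*, a small heat shock protein gene within the 75, had a callus effect of -1.54, and its call was also lost without single libraries (highest limma adjusted p = 0.0945). The 75 loci became 163 without replicate 2 of the *dme-2* calli, and between 45 and 49 without replicate 1, 2 or 3 of WT shoots or replicate 1 or 3 of *dme-2* shoots.

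The plot of list medians set these groups beside lists with few or no called members. No member was called by limma among 29 DNA methylation, demethylation and RNA-directed DNA methylation genes, 33 cell cycle genes and 16 xylem and phloem genes, where 1, 1 and 0 members had an unadjusted p under 0.05. Without replicate 2 of the *dme-2* calli, 4 methylation genes and 3 xylem and phloem genes were called, without replicate 1 of WT calli 1 xylem and phloem gene, and without replicate 3 of *dme-2* shoots 1 cell cycle gene. The calls in these lists rest on TPM, and count-based fits served only as alternatives because of the count columns of the *dme-2* calli. Members of these lists still differed within the shoots, where 19.5% of all loci tested were higher and 20.5% lower in *dme-2*. Of the cell cycle genes, 23 were lower and 1 higher in *dme-2* shoots, and the list had a median interaction of -0.45 against -0.06 over all loci, with a median effect of -0.04 in calli and -0.53 in shoots. *SIM*, a cyclin-dependent kinase inhibitor gene, was also 1 of the 6 loci called in calli, at 68.5 to 73.1 TPM in WT calli and 22.7 to 24.4 TPM in *dme-2* calli (limma adjusted p = 0.00874). Its effects were -1.54 in calli and -0.92 in shoots, and its interaction of 0.62 was not called (limma adjusted p = 0.186). By the order of gene identifiers, *SIM* (*AT5G04470*) lies near *DME* (*AT5G04560*), as does *AT5G05320*, which was called at both stages. An effect of linkage to the mutation was not tested. Of the 29 DNA methylation genes, 9 were lower and 1 higher in *dme-2* shoots. Together this is no larger a share than the 40.0% of all loci, so the number called does not set this list apart. At 10 xylem and phloem genes *dme-2* shoots were higher, and the list medians were 0.35 in calli and 0.51 in shoots. Among 43 photosystem and light-harvesting genes, 3 had a negative called interaction (1 without replicate 2 or 3 of either group of shoots, and 5 or 6 without replicate 2 of WT calli or any 1 of the *dme-2* calli), and 2 of 22 Calvin cycle and photorespiration genes did (1 without replicate 2 or 3 of WT shoots or replicate 3 of *dme-2* shoots). These shares of 6.98% and 9.09% were below the 10.9% of all loci. Within shoots, 28 photosystem and 20 Calvin cycle genes were lower in *dme-2* and 0 were higher. Median effects were -0.29 in calli and -0.21 in shoots for the photosystem list, and -0.26 and -0.33 for the Calvin cycle list. Among chlorophyll synthesis genes, 7 of 21 had a negative and 1 a positive called interaction, although only 3 to 5 in all were called without any 1 of the 6 shoot libraries. Within shoots, 17 of these 21 genes were lower and 1 higher in *dme-2*. *GSA2*, an early enzyme of the pathway, had a callus effect of 0.37 and a shoot effect of -0.53. Of 23 root stem cell and callus pluripotency regulators, 1 was called, *TAR3* (2 without any 1 WT callus library or replicate 2 or 3 of *dme-2* calli), and among 30 auxin genes 3 were positive and 2 negative. The auxin count was 0 without replicate 2 or 3 of WT shoots or replicate 1 of *dme-2* shoots, and 1 to 3 without any other shoot library or replicate 1 of either group of calli. Clock genes had 1 positive and 2 negative calls among 22 (5 or 6 without replicate 2 of WT or *dme-2* calli), and epidermis and cuticle genes 1 and 2 among 21 (1 without any 1 WT shoot library or replicate 2 or 3 of *dme-2* shoots). Of 14 seed and embryo genes only *AGL15* reached 1 TPM and it was not called, and 0 of 4 imprinted target genes of *DME* were tested.

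**Figure D4:**
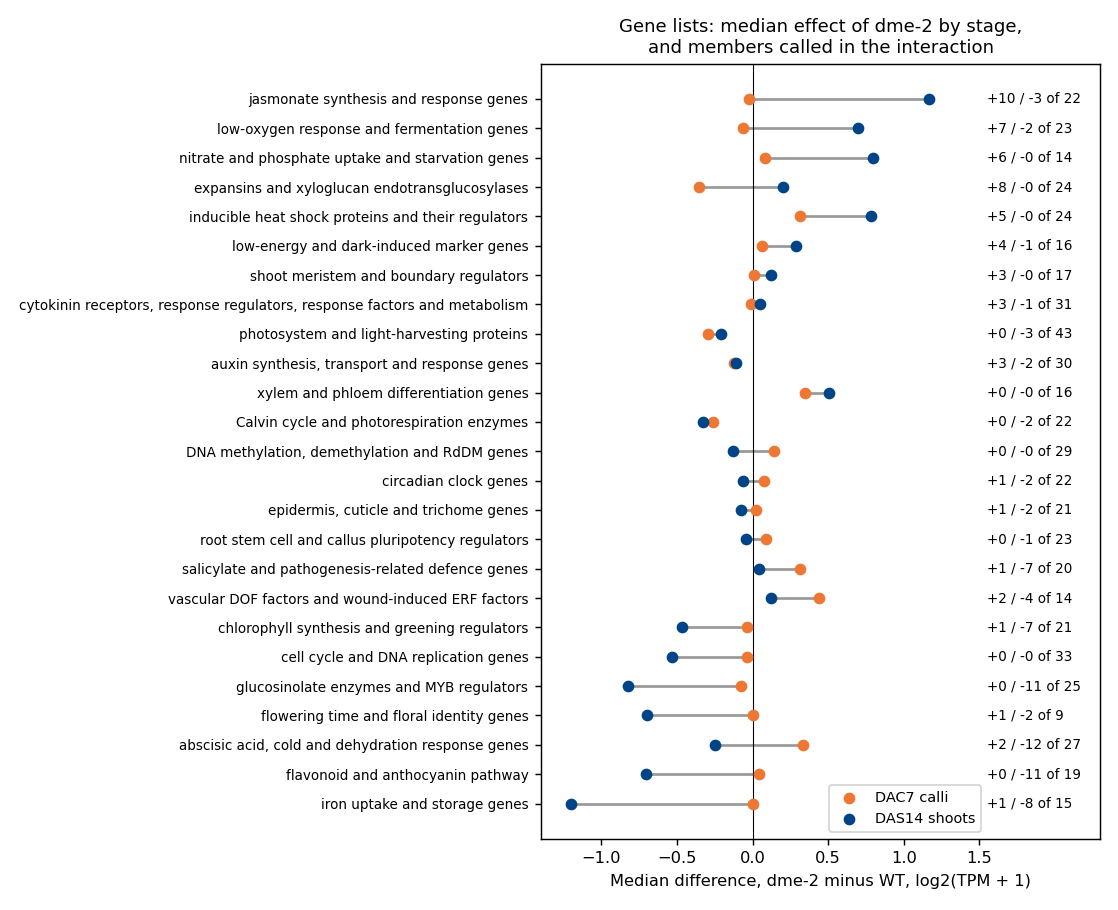
Median effect of *dme-2* on log2(TPM + 1) in DAC7 calli (orange) and DAS14 shoots (blue) over the tested members of each of 25 gene lists, with the number of members called positive and negative in the interaction at the right. Jasmonate genes have the largest shift towards higher shoots, with 10 positive calls among 22, and iron genes the largest shift towards lower shoots, with 8 negative calls among 15.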

How the data were processed

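The authors sequenced stranded mRNA libraries, aligned the reads to a L*er* genome with STAR 2.7.10a and quantified loci with RSEM 1.3.1. They deposited expected counts and TPM per locus. TPM divides by transcript length and library total, so it keeps no depth. The main fit was limma 3.58.1 (R 4.3.3, trended empirical Bayes) on log2(TPM + 1), with 4 group means, loci with a mean TPM of at least 1, and Benjamini-Hochberg adjustment over all of them at 0.05. Fold changes on this scale understate low genes. Stage fits used the 6 libraries of 1 stage. Deposited expected counts, rounded, entered only the alternatives (edgeR 4.0.16, DESeq2 1.42.0) because those of the *dme-2* calli went against their TPM. The samples were labelled as biological replicates.

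Arabidopsis names came from the homologues listed in the file, matched to RefSeq TAIR10.1, and no coordinates or sequences were taken from that build. Loci with several homologues are uncertain. The question, the gene lists and the tests were chosen with earlier results of these data known. Named loci were *DME*, the 6 largest called interactions in each direction, the 5 largest per response class with a single named homologue, up to 4 called members per list with the largest interactions (or the 2 smallest p), and called members with opposite stage effects. Other genes, such as *JAZ9*, *MAM1*, *LOX2*, *CHS*, *NCED3*, *SARD1*, *PR5*, *GSA2*, *AOC1*, *AOC2*, *XTH31*, *XTH20*, *HCA2*, *OBP2* and *SDH3-1*, were named after their values were seen. On simulated data the limma fit recovered 87 of 100 changes of log2 size 2 and 52 of 100 of size 1 for the interaction over 18813 loci. There were 15 false calls among 154, and an unadjusted p under 0.05 at 6.27% of unchanged loci. Both shares were above the threshold of 0.05, so the fit was somewhat lenient in this simulation.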

Additional observations from a re-analysis of the deposited data

Results flagged for a closer look

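The interaction was called by limma at 2060 loci, where the difference between *dme-2* and WT itself differed between the stages, and at 540 of these the libraries were apart in opposite directions at both stages. The loci with the largest called interactions in each direction stood out in the same test. The positive ones were *AT1G62600* (5.94), *PI* (4.68), *JAZ8* (4.15), *AT2G37130* (3.97), *AT1G22810* (3.81) and *AT5G52020* (3.78). The negative ones were *ECS1* (-5.68), *PR1* (-5.10), *IMA1* (-5.02), *GER2* (-4.66), *MAM3* (-4.46) and *BNS* (-4.39). *BNS*, which encodes a subunit of the anaphase-promoting complex, was listed at 0 in all WT calli and was at 22.6, 6.61 and 7.93 TPM in *dme-2* calli. *AT1G22810*, of the AP2/ERF family, varied widely in *dme-2* calli, at 3.1, 0.62 and 15.8 TPM, and its adjusted p by limma rose from 0.0262 to as much as 0.068 without 1 library. The count columns, which the main fits did not use, held 2126 *DME* counts in replicate 1 of the *dme-2* calli, above every WT library, while the TPM of the same library was 3.21.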

How the results depend on the processing

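Of 89 named loci called, 51 kept the call under every alternative on TPM and all 89 kept their sign. Of 2009 called loci in the shoot count fit, 1994 had the same sign of shoot effect, and the callus effects were not checked by counts. In the interaction fits on counts the sign was the same at 1665 of 2047 called loci with TMM and 1647 of 2047 with RLE. It was the same at 1673 of 2057 without a filter and 1651 of 2060 with DESeq2. Against 2060 called (1269 higher, 791 lower, 1347 past the cut-off of the study), fits on the counts called 15570 with TMM (7574, 7996, 11655), 15464 with RLE (7894, 7570, 11622), 15706 without a filter (7602, 8104, 12038) and 15805 with DESeq2 (8145, 7660, 12049), all with the count columns of *dme-2* calli that went against TPM. No paired analysis is implied by the labels, and of 18 same-numbered pairs of libraries, 0 had a correlation of deviations over 0.1. Between WT and *dme-2* calli, same-numbered pairs ran from -0.39 to -0.05, and pairs with different numbers from -0.24 to 0.46. Whether calli of the 2 genotypes shared batches under other numbers was not tested. With a replicate block 1450 loci were called (502 lower, 0 at both stages), and with the replicate block within stage 736 (515 higher, 221 lower), of which 687 in shoots only, 0 at both stages, 49 at neither, and 35, 146 and 9 in the classes by size with callus effects only, opposite signs and the same sign (75, 240 and 21 without the block).

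The number called in calli alone, 0, became 2 with a pseudocount of 0.1, 2 without a filter, 1 with a mean of at least 5 TPM, 1 with median-ratio scaling, 16 with stage weights and 178 with effects from 12 libraries. The number called in opposite directions, 0, became 1 without a filter, 1 with median-ratio scaling, 32 with stage weights and 85 with 12 libraries. The 3 loci in the same direction became 16 with stage weights and 11 with 12 libraries, and the 200 at neither stage became 114 with stage weights.

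Leaving out 1 library gave 1281 to 3480 called loci, 855 to 1780 higher, 426 to 1700 lower and 1293 to 1983 past the cut-off. The classes then held 1172 to 2868 in shoots only, 0 to 2 in calli only, 0 to 1 opposite, 1 to 4 in the same direction and 106 to 611 at neither. The classes by size held 405 to 473 with shoot effects, 45 to 163 with callus effects, 187 to 434 with opposite signs and 10 to 32 with the same sign. The callus error, with a median SE of 0.19 against 0.088 in shoots, limits what could be called there.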
